A study of Homo sapiens with 5 samples.

Results

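The machinery that docks, primes and fuses secretory vesicles was followed through 44 genes, taken by symbol from a table of transcript levels for 57905 human genes. The members were grouped by textbook knowledge into 29 genes typical of neurons and endocrine cells and 15 broadly expressed genes, many of them paralogs of the first group. RNA from 5 established cell lines, with 1 library per line, had been sequenced after enrichment of mRNA with oligo-dT. MCC13, MKL-1, MKL-2 and WaGa were labelled as Merkel cell carcinoma lines, from a neuroendocrine cancer of the skin, and REH as a pre-B-cell acute lymphoblastic leukemia line. All were labelled wild type and grown in RPMI medium with fetal bovine serum, with no treatment named. The series addressed PAX5 in Merkel cell carcinoma. A line is the descendant of a single tumour, so n below counts lines and every SD is a spread between lines. Levels are TPM, a transcript abundance scaled by transcript length and by the total of the library. Genes can thus be set side by side within a library. Between libraries, TPM compares shares of each total, which also depend on the other transcripts in the library.

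Regulated exocytosis rests on SNARE proteins, which stand on the vesicle (VAMPs) and on the target membrane (syntaxins and the SNAP25 type) and zip together to pull the membranes into fusion. Complexins and syntaxin-binding proteins clamp or assist these bundles, MUNC13, CAPS and RIM proteins prepare vesicles for release, RAB3 GTPases bring them to the membrane, and synaptotagmins sense calcium. Neurons and neuroendocrine cells use dedicated paralogs for fast or hormone-like release. Other cells use broad paralogs for constitutive traffic and, as in blood and gland cells, for granule release. Merkel cells are sensory cells of the skin that contain dense-core granules and contact nerve endings, and synaptophysin is a routine stain for neuroendocrine tumours.

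The libraries had 15949 to 16921 genes at 1 TPM or more, and the read depth behind the TPM values was unknown. In REH, 21 genes were listed at 0 although each of the other lines had them at 50 TPM or more, against 0 or 1 such genes in each other line. A value of 0 in REH may therefore be a failed estimate. Exons of RAB3D, STXBP2 and VAMP2 overlap another protein-coding gene on the same strand, and those of 10 members one on the opposite strand, so their levels are less certain. The label of MCC13 was not borne out by 10 Merkel and neuroendocrine markers: their summed level was 35.8 TPM in MCC13, against 4132 to 7599 TPM across MKL-1, MKL-2 and WaGa. The transcription factors ATOH1, ISL1 and INSM1 were listed at 0 in MCC13, and 9 of the 10 markers were under 1 TPM there. The summed level of 7 mesenchymal markers was 10023 TPM in MCC13, against 12.4 to 18.7 TPM in the other Merkel cell carcinoma lines. The same 7 summed to 963 TPM in REH, where VIM alone stood at 724 TPM. In REH, 9 B-lineage markers summed to 6064 TPM, against 53.2 to 143 TPM across MKL-1, MKL-2 and WaGa. These marker levels separate the same lines as the comparisons below, and their part in the differences was not tested. Each library is a bulk culture, so fewer cells with a transcript and less of it per cell cannot be told apart, and line and library cannot be told apart either.

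The broad class made up most of the module in MCC13, and the neuronal class most of it across MKL-1, MKL-2 and WaGa; REH resembled MCC13 in this respect. The 29 neuronal members summed to 301 TPM in MCC13, against 1843 in MKL-1, 1806 in MKL-2 and 1926 in WaGa, and to 227 TPM in REH. The 15 broad members summed to 560 TPM in MCC13, against 365 TPM in MKL-1, 392 in MKL-2 and 508 in WaGa, and to 325 TPM in REH. The neuronal sums of MKL-1, MKL-2 and WaGa thus lay close to each other and well above both other lines, while the broad sums spanned 325 to 560 TPM and were highest in MCC13. Neuronal members made up 35.0% of the module in MCC13, against 83.5% in MKL-1, 82.2% in MKL-2 and 79.1% in WaGa, and 41.1% in REH. The median neuronal member stood at 0.684 TPM in MCC13, against 25.1 TPM in MKL-1, 40.8 in MKL-2 and 34.9 in WaGa, and at 0.0375 TPM in REH. At 10 TPM or more were 5 of 29 neuronal members in MCC13, against 19 in MKL-1, 22 in MKL-2 and 19 in WaGa, and 4 in REH. These class sums were not tested, and exact permutation of 3 lines against 1 gives no p below 0.25.

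**Figure D1:**
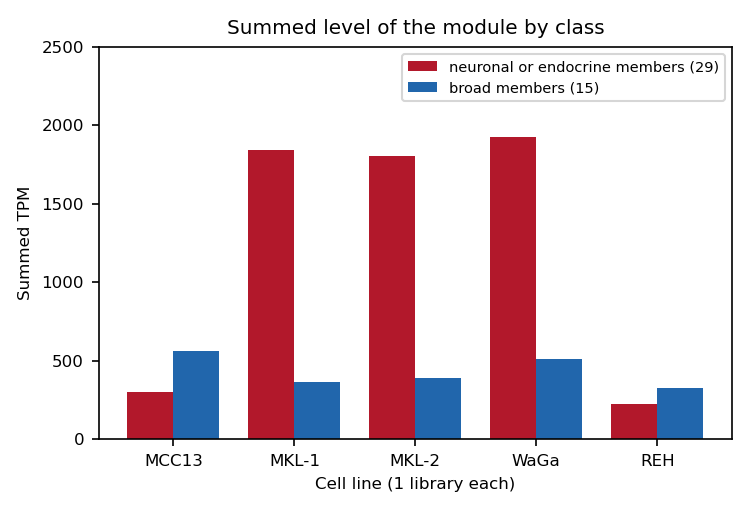
Summed level of the module in TPM (vertical axis, linear from 0) in each of the 5 lines, with 1 bar for the 29 neuronal or endocrine members and 1 for the 15 broad members; bars carry no error because each line has 1 library. The neuronal sum is 301 TPM in MCC13, against 1806 to 1926 TPM across MKL-1, MKL-2 and WaGa, and 227 TPM in REH.

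Differences were tested with limma on log2(TPM + 1) across all genes at 1 TPM or more in a line compared, with Benjamini-Hochberg adjustment over all of them and an adjusted p under 0.05 as the threshold. Of 43 members tested in MCC13 against MKL-1, MKL-2 and WaGa, 8 were lower in MCC13 and 0 higher, and at an unadjusted p under 0.05 in limma 15 were lower and 3 higher. Over all 20698 genes tested, 2.47% were lower in MCC13 and 6.47% were higher, 8.95% in all. The 8 members were SYT7, SYT13, CPLX2, UNC13A, SYP, SNAP25, SYT1 and RIMS2, of which 7 belong to the 28 neuronal members tested and 1, SYT7, to the 15 broad members. SYT6 did not reach 1 TPM in any of the lines and was not tested. The median difference was -3.15 over the neuronal members tested and 0.94 over the broad ones, against -0.30 over all genes tested, or -0.13 after quantile normalization. By position alone, MCC13 lay below each of MKL-1, MKL-2 and WaGa for 27 of the 44 members, 25 of them neuronal, where 43.4% of all genes tested did so. It lay above all 3 for 7 members, 6 of them broad, where 27.7% of all genes did so. MCC13 was set apart from the other lines with these results already known, so its counts are descriptions of 1 line. Leaving out MKL-1, MKL-2 and WaGa in turn ended every call, of members and of other genes, and 14 members were lower when only genes averaging 5 TPM or more were tested.

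Of the same 43 members, 11 were higher and 0 lower in MKL-1, MKL-2 and WaGa against REH (20 and 1 at an unadjusted p under 0.05 in limma), where 4.89% of 21247 genes were higher and 8.42% lower, 13.3% in all. They were SNAP25, SYP, RIMS2, SYT13, UNC13B, CPLX2, SYT7, RAB3A, SYN1, CPLX1 and SYT4, of which 9 are neuronal and UNC13B and SYT7 broad. The median difference was 3.44 over neuronal members and 0.48 over broad members, against 0.20 over all genes tested, or 0.015 after quantile normalization. Every value of MKL-1, MKL-2 and WaGa lay above REH for 30 members and below it for 5, where 40.9% and 32.4% of all genes tested did so. Of the 11 higher members, SNAP25, SYT13, UNC13B, CPLX2, CPLX1 and SYT4 were listed at 0 in REH, which may be a failed estimate. The same limit holds for UNC13B when all 4 Merkel cell carcinoma lines are set against REH. The comparisons of MCC13 and of REH with MKL-1, MKL-2 and WaGa share those 3 lines, so their calls are not independent. Here too each call ended when any 1 of the 3 lines was left out. SYT4 and CPLX1 also lost the call when no filter on low values was used, with limma adjusted p of 0.0570 for SYT4 and 0.0512 for CPLX1. With all 4 Merkel cell carcinoma lines set against REH, the grouping given by the labels, 1 member was higher, UNC13B, and 0 were lower (6 and 1 at an unadjusted p under 0.05 in limma), where 1.09% of 22250 genes were higher and 4.15% lower, 5.24% in all. Without MCC13 that count was 11, and without any 1 of the other 3 lines it was 0.

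**Figure D2:**
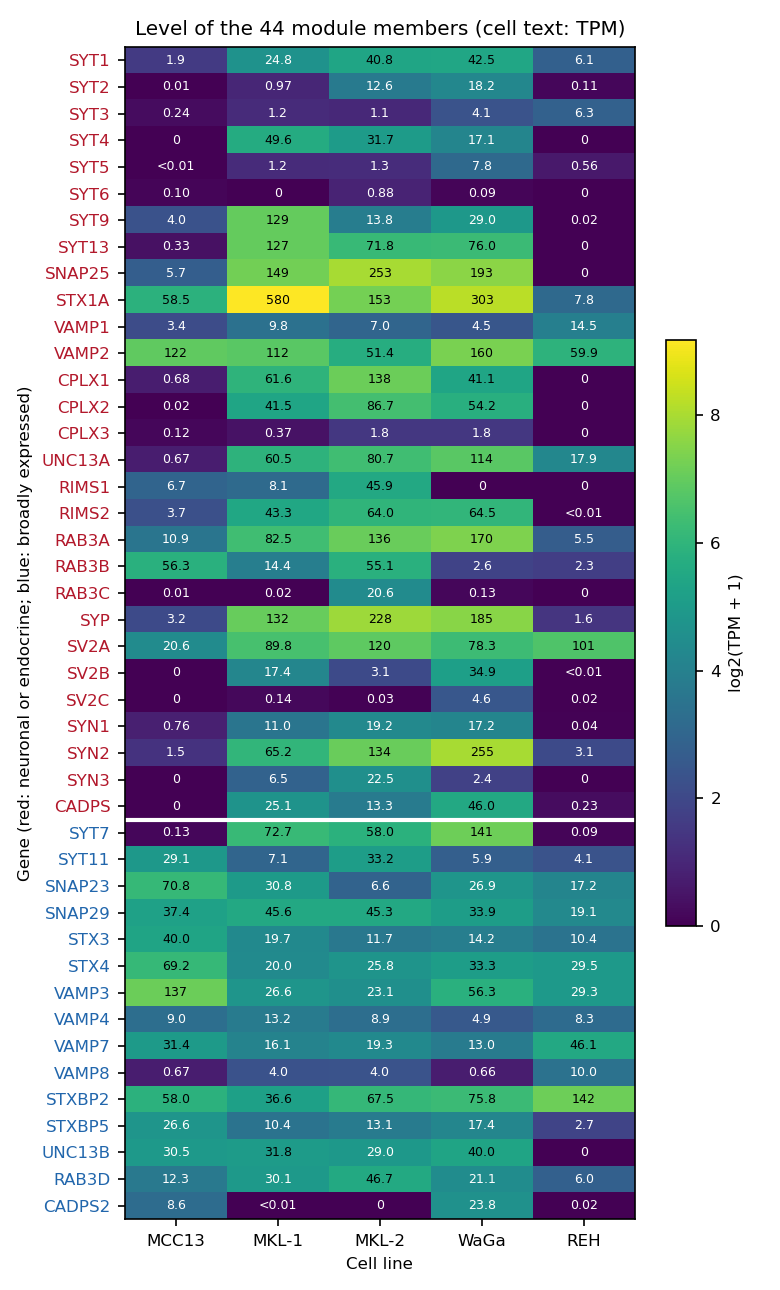
Heat map of the 44 members (rows, neuronal or endocrine above the white line, broad below it) in the 5 lines (columns); colour gives log2(TPM + 1) and the printed number is the TPM value. Brighter is higher: most neuronal rows are dark in MCC13, brighter across MKL-1, MKL-2 and WaGa, and dark in REH. The broad rows SNAP29, VAMP3 and STX4 are of middle brightness or above in all 5 lines. Other broad rows are uneven: SYT7 is dark in MCC13 and REH, UNC13B in REH, CADPS2 in MKL-1, MKL-2 and REH, and VAMP8 in MCC13 and WaGa.

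Among the calcium sensors, different synaptotagmins led in different lines. SYT1, the fast sensor of synaptic vesicle fusion, stood at 1.92 TPM in MCC13, against 24.8 TPM in MKL-1, 40.8 in MKL-2 and 42.5 in WaGa, and at 6.07 TPM in REH. SYT7, a high-affinity sensor that acts in slow and granule release, stood at 0.131 TPM in MCC13, against 72.7 TPM in MKL-1, 58.0 in MKL-2 and 141 in WaGa, and at 0.0922 TPM in REH. SYT13, a family member that lacks calcium binding, stood at 0.326 TPM in MCC13, against 127 TPM in MKL-1, 71.8 in MKL-2 and 76.0 in WaGa, and was listed at 0 in REH. For all 3 genes MKL-1, MKL-2 and WaGa formed a high group that overlapped neither MCC13 nor REH. By position alone, all 3 lines lay above MCC13 for 43.4% of all genes tested and above REH for 40.9%. The log2 difference of MCC13 from the 3 lines was -6.23 ± 0.63 (SE, limma adjusted p = 0.0239) for SYT7, and -6.08 ± 0.46 (adjusted p = 0.0138) for SYT13. For SYT1 it was -3.63 ± 0.46 (adjusted p = 0.0388), a call lost after quantile normalization (adjusted p = 0.0577). Against REH, MKL-1, MKL-2 and WaGa were higher by 6.28 ± 0.63 for SYT7 (adjusted p = 0.0204) and by 6.48 ± 0.46 for SYT13 (adjusted p = 0.0122), but SYT1 did not pass (2.35 ± 0.45, adjusted p = 0.0642).

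SYT4, a synaptotagmin of dense-core granules, was listed at 0 in MCC13, against 49.6 TPM in MKL-1, 31.7 in MKL-2 and 17.1 in WaGa, and listed at 0 in REH. SYT9, a calcium sensor of synaptic and endocrine vesicles, stood at 3.97 TPM in MCC13, against 129 TPM in MKL-1, 13.8 in MKL-2 and 28.96 in WaGa, and at 0.0166 TPM in REH. SYT4 was higher in MKL-1, MKL-2 and WaGa than in REH by 4.96 ± 0.73 (adjusted p = 0.0407), while its difference in MCC13 did not pass (-4.96 ± 0.74, adjusted p = 0.0529). SYT9 passed in neither comparison, and its level in MKL-1 was 9.32 times that in MKL-2. SYT2, the fast sensor of many hindbrain and motor synapses, stood at 0.0147 TPM in MCC13, against 0.969 TPM in MKL-1, 12.6 in MKL-2 and 18.2 in WaGa, and at 0.109 TPM in REH. SYT11, which lacks calcium binding and is widely expressed, stood at 29.1 TPM in MCC13, against 7.06 TPM in MKL-1, 33.2 in MKL-2 and 5.86 in WaGa, and at 4.07 TPM in REH. MCC13 lay within the range of the 3 lines for SYT11, which was the leading synaptotagmin of MCC13 among the members. Outside the members, SYT15 was higher there, at 43.8 TPM. Among the members, SYT9 led in MKL-1, SYT13 in MKL-2, SYT7 in WaGa and SYT3 in REH, where SYT3 stood at 6.28 TPM. SYT3, SYT5 and SYT6 were between 0 and 7.84 TPM in every line; SYT3 and SYT5 did not pass in MCC13 or against REH, and SYT6 was not tested.

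Among the target-membrane SNAREs the neuronal and broad paralogs were ordered differently in different lines. SNAP25, the SNARE of synaptic and endocrine release, stood at 5.74 TPM in MCC13, against 149 TPM in MKL-1, 253 in MKL-2 and 193 in WaGa, and was listed at 0 in REH. SNAP23, its paralog in non-neuronal cells, stood at 70.8 TPM in MCC13, against 30.8 TPM in MKL-1, 6.62 in MKL-2 and 26.9 in WaGa, and at 17.2 TPM in REH. SNAP25 was thus far below the other Merkel cell carcinoma lines in MCC13, while the SNAP23 value of MCC13 lay above all of them. SNAP25 was lower in MCC13, with a log2 difference of -4.85 ± 0.39 (SE, limma adjusted p = 0.0148) and higher in MKL-1, MKL-2 and WaGa than in REH by 7.60 ± 0.39 (adjusted p = 0.0089). The SNAP23 difference of 1.93 ± 1.05 in MCC13 did not pass (adjusted p = 0.347). SNAP29, a SNARE of endosomes and autophagosomes, was even across the Merkel cell carcinoma lines, at 37.4 TPM in MCC13, against 45.6 TPM in MKL-1, 45.3 in MKL-2 and 33.9 in WaGa, and 19.1 TPM in REH. Per transcript length, the SNAP25 level was 0.0811 times the SNAP23 level in MCC13, against 4.82 times in MKL-1, 38.2 in MKL-2 and 7.18 in WaGa.

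STX1A, the syntaxin of presynaptic and endocrine plasma membranes, stood at 58.5 TPM in MCC13, against 579.8 TPM in MKL-1, 153 in MKL-2 and 303 in WaGa, and at 7.82 TPM in REH. It was the most abundant member in MKL-1 and WaGa, and MCC13 lay below all 3 lines but well above REH. Neither difference passed, at -2.34 ± 0.88 for MCC13 (SE, limma adjusted p = 0.222) and 5.09 ± 0.87 for the 3 lines against REH (adjusted p = 0.0532). STX3, a syntaxin of apical and granule membranes, stood at 40.02 TPM in MCC13, against 19.7 TPM in MKL-1, 11.7 in MKL-2 and 14.2 in WaGa, and at 10.4 TPM in REH. STX4, a plasma-membrane syntaxin of most cell types, stood at 69.2 TPM in MCC13, against 20.04 TPM in MKL-1, 25.8 in MKL-2 and 33.3 in WaGa, and at 29.5 TPM in REH. Both broad syntaxins were above every other Merkel cell carcinoma line in MCC13, but neither difference passed (1.37 ± 0.41 for STX3, adjusted p = 0.165, and 1.39 ± 0.38 for STX4, adjusted p = 0.144). STX1A was 1.46 times STX3 in MCC13, against 29.5 times in MKL-1, 12.99 in MKL-2 and 21.3 in WaGa, and 0.754 times in REH.

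Among the vesicle SNAREs the neuronal VAMP2 was abundant in all 5 lines. VAMP2, the main vesicle SNARE of synapses, stood at 122 TPM in MCC13, against 112 TPM in MKL-1, 51.4 in MKL-2 and 160.5 in WaGa, and at 59.9 TPM in REH. VAMP3, or cellubrevin, its paralog in most cells, stood at 137 TPM in MCC13, against 26.6 TPM in MKL-1, 23.1 in MKL-2 and 56.3 in WaGa, and at 29.3 TPM in REH. VAMP2 in MCC13 lay within the range of the other lines, and VAMP3, the most abundant member in MCC13, lay above it. The VAMP3 difference of 2.03 ± 0.63 did not pass (SE, limma adjusted p = 0.173), and that of VAMP2 was 0.32 ± 0.76. VAMP1, a SNARE of fast synapses, was at 3.42 TPM in MCC13, against 4.49 to 9.82 TPM across MKL-1, MKL-2 and WaGa, and 14.5 TPM in REH. VAMP4 and VAMP7, which serve endosomal and lysosomal traffic, were between 4.92 and 46.1 TPM in the 5 lines. VAMP8, a SNARE of granule and endosome fusion in blood and gland cells, was at 0.671 TPM in MCC13, against 4.03 TPM in MKL-1, 4.03 in MKL-2 and 0.664 in WaGa, and 9.98 TPM in REH. None of the vesicle SNAREs passed in either comparison.

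**Figure D3:**
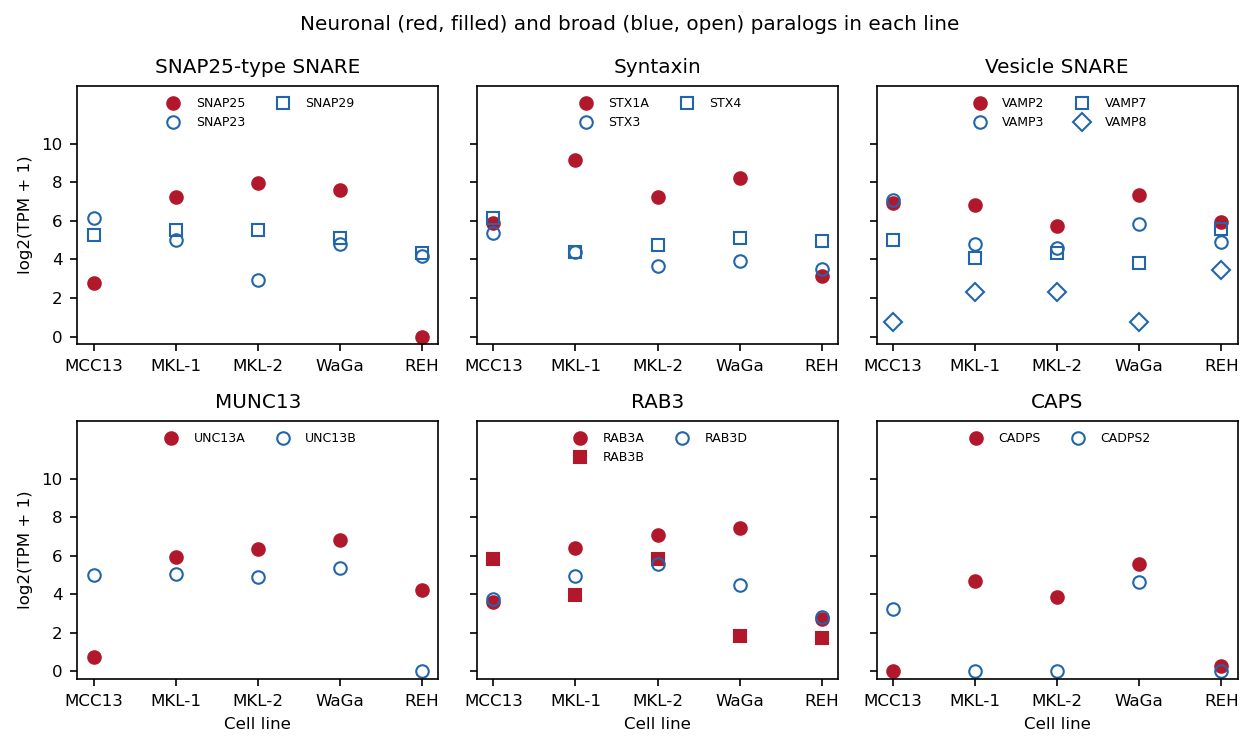
Neuronal (filled red) and broad (open blue) paralogs in 6 families; each point is 1 library on a log2(TPM + 1) axis, with the 5 lines along the horizontal axis. SNAP25 over SNAP23 and UNC13A over UNC13B have log2 ratios of -3.41 and -4.24 in MCC13, against means of 3.36 and 1.28 in MKL-1, MKL-2 and WaGa. CADPS over CADPS2 also changes order (-3.26 against 3.15). So, by a small margin in MCC13, do STX1A over STX4 (-0.24 against 3.48), RAB3A over RAB3D (-0.15 against 1.96) and VAMP2 over VAMP3 (-0.16 against 1.55). STX1A over STX3 keeps its order (0.54 against 4.24). VAMP2 over VAMP8 goes the other way, at 6.20 in MCC13 against a mean of 4.82, within the range of the 3 lines.

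Complexins are small proteins that bind the assembled SNARE bundle and hold it for the calcium signal. CPLX1 stood at 0.684 TPM in MCC13, against 61.6 TPM in MKL-1, 138 in MKL-2 and 41.1 in WaGa, and was listed at 0 in REH. CPLX2 stood at 0.0186 TPM in MCC13, against 41.5 TPM in MKL-1, 86.7 in MKL-2 and 54.2 in WaGa, and was listed at 0 in REH. Both isoforms were thus below 1 TPM in MCC13, present together in each of the other Merkel cell carcinoma lines, and listed at 0 in REH. CPLX2 was lower in MCC13, with a log2 difference of -5.86 ± 0.54 (SE, limma adjusted p = 0.0192), and both were higher in the 3 lines than in REH, CPLX1 by 6.16 ± 0.82 (adjusted p = 0.0343) and CPLX2 by 5.88 ± 0.54 (adjusted p = 0.0176). The CPLX1 difference in MCC13, -5.41 ± 0.82, did not pass (adjusted p = 0.0549). CPLX3, known from retinal ribbon synapses, did not exceed 1.79 TPM in any line.

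The syntaxin-binding members followed no such pattern. STXBP2, or MUNC18-2, which serves granule release in blood cells and epithelia, stood at 58.0 TPM in MCC13, against 36.6 TPM in MKL-1, 67.5 in MKL-2 and 75.8 in WaGa, and at 142 TPM in REH, where it was the most abundant member. STXBP5, or tomosyn, an inhibitor that takes the place of VAMPs on syntaxin, stood at 26.6 TPM in MCC13, against 10.4 TPM in MKL-1, 13.1 in MKL-2 and 17.4 in WaGa, and at 2.72 TPM in REH. Neither gene passed in either comparison.

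Among priming factors the MUNC13 pair differed by paralog and by line. UNC13A, or MUNC13-1, the main priming factor of central synapses, stood at 0.665 TPM in MCC13, against 60.5 TPM in MKL-1, 80.7 in MKL-2 and 114 in WaGa, and at 17.9 TPM in REH. UNC13B, or MUNC13-2, found in brain and in epithelia, stood at 30.5 TPM in MCC13, against 31.8 TPM in MKL-1, 28.97 in MKL-2 and 40.03 in WaGa, and was listed at 0 in REH. UNC13A was lowest in MCC13, and UNC13B, even across the Merkel cell carcinoma lines, was lowest in REH. UNC13A was lower in MCC13, with a log2 difference of -5.64 ± 0.46 (SE, limma adjusted p = 0.0155), whereas the UNC13B difference there was -0.12 ± 0.30 (adjusted p = 0.815). Against REH, MKL-1, MKL-2 and WaGa were higher for UNC13B by 5.10 ± 0.37 (adjusted p = 0.0125), a value that rests on a listed 0, and did not pass for UNC13A (2.14 ± 0.44, adjusted p = 0.0741). The UNC13A over UNC13B log2 ratio was -4.24 in MCC13, against 1.28 ± 0.32 in the 3 lines (SD, n = 3), and 4.24 in REH.

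RIMS2, a RIM scaffold that links RAB3 on the vesicle to MUNC13 and calcium channels, stood at 3.71 TPM in MCC13, against 43.3 TPM in MKL-1, 64.04 in MKL-2 and 64.5 in WaGa, and at 0.00315 TPM in REH. It was lower in MCC13, with a log2 difference of -3.61 ± 0.37 (SE, limma adjusted p = 0.0238) and higher in the 3 lines than in REH by 5.84 ± 0.39 (adjusted p = 0.0110). RIMS1, its paralog at central synapses, stood at 6.72 TPM in MCC13, against 8.07 for MKL-1 and 45.9 for MKL-2, and was listed at 0 in WaGa and in REH. MKL-1, MKL-2 and WaGa thus had RIMS2 in common and differed in RIMS1. CADPS, or CAPS1, a priming factor of dense-core granules, was listed at 0 in MCC13, against 25.1 TPM in MKL-1, 13.3 in MKL-2 and 46.0 in WaGa, and stood at 0.227 TPM in REH. Its paralog CADPS2 stood at 8.57 TPM in MCC13, against 0.00655 TPM in MKL-1, a listed 0 in MKL-2 and 23.8 TPM in WaGa, and at 0.0210 TPM in REH. WaGa thus had both CAPS paralogs, MKL-1 and MKL-2 had CADPS with CADPS2 at or near 0, and MCC13 had CADPS2 with CADPS listed at 0. Neither CAPS gene passed a test (CADPS in MCC13 -4.70 ± 0.84, adjusted p = 0.0738).

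RAB3 GTPases tether secretory vesicles. RAB3A, the isoform of synaptic vesicles, stood at 10.9 TPM in MCC13, against 82.5 TPM in MKL-1, 136 in MKL-2 and 169.7 in WaGa, and at 5.49 TPM in REH. RAB3D, the isoform of exocrine and other granules, stood at 12.3 TPM in MCC13, against 30.1 TPM in MKL-1, 46.7 in MKL-2 and 21.1 in WaGa, and at 5.98 TPM in REH. MCC13 and REH lay below the 3 lines for both isoforms, as MCC13 did for 43.4% and REH for 40.9% of all genes tested. RAB3A was higher in the 3 lines than in REH by 4.27 ± 0.51 (SE, limma adjusted p = 0.0278), and its difference in MCC13, -3.39 ± 0.51, did not pass (adjusted p = 0.0537). RAB3B, an isoform of pituitary and epithelial cells, differed in its position, at 56.3 TPM in MCC13, against 14.4 TPM in MKL-1, 55.1 in MKL-2 and 2.59 in WaGa, and 2.28 TPM in REH. It was the 1 neuronal member whose value in MCC13 exceeded all 3 lines, by a small margin over MKL-2, and it did not pass. RAB3C, a brain isoform, stood at 0.0143 TPM in MCC13, against 0.0235 TPM in MKL-1, 20.6 in MKL-2 and 0.126 in WaGa, and was listed at 0 in REH.

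Proteins of the vesicle membrane and the synapsins closed the list. SYP, synaptophysin, stood at 3.23 TPM in MCC13, against 132 TPM in MKL-1, 228 in MKL-2 and 185 in WaGa, and at 1.64 TPM in REH. It was lower in MCC13, with a log2 difference of -5.40 ± 0.40 (SE, limma adjusted p = 0.0132) and higher in the 3 lines than in REH by 6.08 ± 0.40 (adjusted p = 0.0108). SV2A, a vesicle glycoprotein present at nearly all synapses, stood at 20.6 TPM in MCC13, against 89.8 TPM in MKL-1, 120.3 in MKL-2 and 78.3 in WaGa, and at 101 TPM in REH. SV2A was the most abundant neuronal member of REH, which lay inside the range of MKL-1, MKL-2 and WaGa, with a difference of -0.09 ± 0.33. Its difference in MCC13, -2.15 ± 0.34, did not pass (adjusted p = 0.0578). SV2B, a brain paralog of SV2A, was listed at 0 in MCC13, against 17.4 TPM in MKL-1, 3.13 in MKL-2 and 34.9 in WaGa, and stood at 0.00568 TPM in REH. SV2C, the isoform of the basal ganglia, was listed at 0 in MCC13, against 0.137 TPM in MKL-1, 0.0332 in MKL-2 and 4.56 in WaGa, and stood at 0.0177 TPM in REH. SV2B and SV2C thus varied among MKL-1, MKL-2 and WaGa, and neither passed a test.

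Synapsins, which coat synaptic vesicles and hold them in reserve, were led by SYN2 in every line. SYN2 stood at 1.52 TPM in MCC13, against 65.2 TPM in MKL-1, 134 in MKL-2 and 255 in WaGa, and at 3.13 TPM in REH. SYN1 stood at 0.756 TPM in MCC13, against 11.0 TPM in MKL-1, 19.2 in MKL-2 and 17.2 in WaGa, and at 0.0375 TPM in REH. SYN3 was listed at 0 in MCC13, against 6.46 TPM in MKL-1, 22.5 in MKL-2 and 2.42 in WaGa, and was listed at 0 in REH. All 3 synapsins thus lay above both MCC13 and REH in each of MKL-1, MKL-2 and WaGa. Over all genes tested, 43.4% lay above MCC13 in all 3 lines and 40.9% above REH, and the share above both is not given here. SYN1 was higher in the 3 lines than in REH by 3.98 ± 0.50 (SE, limma adjusted p = 0.0314), and no synapsin passed in MCC13, with -5.71 ± 0.90 (adjusted p = 0.0581) for SYN2 and -3.22 ± 0.50 (adjusted p = 0.0569) for SYN1.

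**Figure D4:**
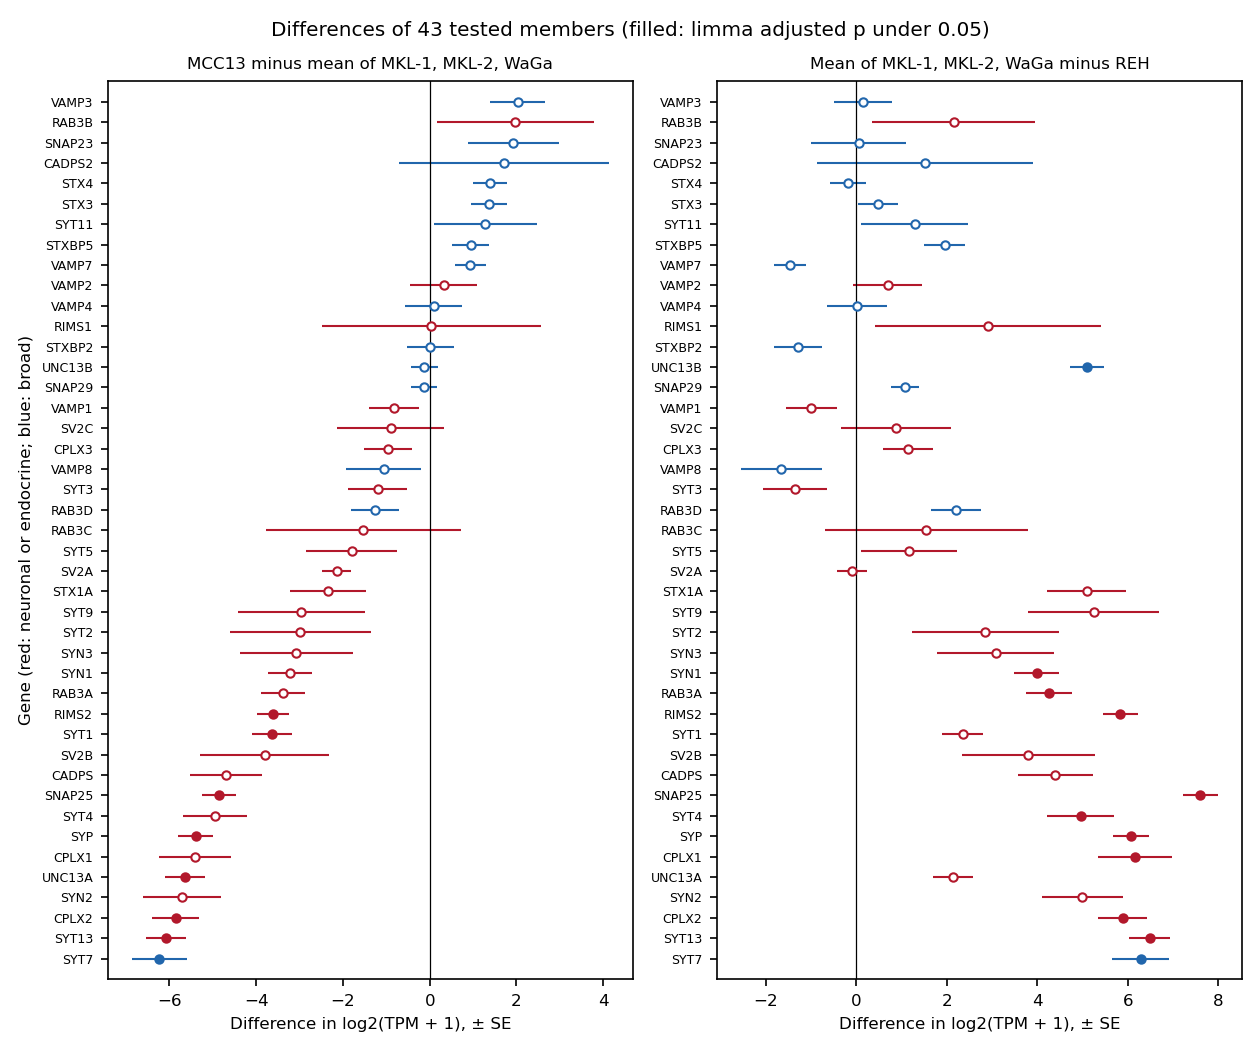
Differences of the tested members on the log2(TPM + 1) scale in the comparison of MCC13 with MKL-1, MKL-2 and WaGa and in the comparison of MKL-1, MKL-2 and WaGa with REH; bars are standard errors from limma and filled points passed an adjusted p of 0.05. The 8 members that passed in the first comparison all lie below 0, and the 11 that passed in the second all lie above 0; both comparisons share MKL-1, MKL-2 and WaGa.

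Within MKL-1, MKL-2 and WaGa some members varied little and others reached 1 TPM in a single line. Of 36 members at 1 TPM or more in each of the 3 lines, 14 had a highest value under 2 times the lowest. In 6 the highest value was over 5 times the lowest. Of all 14538 genes at that level, 8842 were under 2 times and 909 over 5 times, so even members were scarcer here than even genes in general. The median ratio of highest to lowest was 2.199 over these members, 2.90 over the 23 neuronal and 2.07 over the 13 broad ones, against 1.77 over 14538 genes at that level. The most even neuronal members were RIMS2 (ratio 1.49), SV2A (1.54), SNAP25 (1.70), SYP (1.72), SYT1 (1.72) and SYN1 (1.75), and the most uneven at that level was RAB3B (21.3). Above 20 TPM in all 3 lines were 13 neuronal members: VAMP2, SNAP25, STX1A, SYT1, SYT13, CPLX1, CPLX2, UNC13A, RIMS2, RAB3A, SYP, SV2A and SYN2. Of these 13, VAMP2, STX1A and SV2A were also above 20 TPM in MCC13. Of 7 broad members above 20 TPM in all 3 lines, 5 were above it in MCC13 as well, the exceptions being SYT7 and RAB3D. Both sets were picked by their levels in MKL-1, MKL-2 and WaGa, which favours lower values in MCC13. The share over all genes is not given here, so these counts only describe the members.

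Windows of promoter sequence show which letter patterns the members share around their starts. RefSeq windows on GRCh38.p14, from 250 bases before to 50 after a gene's start, were found for 37 of the 44 members, 24 neuronal and 13 broad. They were searched on both strands for the left arm TCAGCAC and the right arm GGACAGC of RE1, the element bound by the repressor REST in many neuronal genes, for the GC box GGGCGG and for TATAAA. A gene can have several windows, and the 24 neuronal genes had 36 and the 13 broad genes 18. The left arm occurred in 9 of 36 neuronal windows, of 9 genes, and in 0 of 18 broad windows, where 4.53% of all 34961 windows held it. These 9 were CPLX3, RAB3C, SV2B, SV2C, SYN1, SYT3, SYT4, UNC13A and VAMP1. The right arm occurred in 4 of 36 neuronal and 0 of 18 broad windows, against 6.04% of all windows. With only 18 broad windows, a count of 0 is near the share of either arm over all windows and does not set the classes apart. The GC box occurred in 25 of 36 neuronal and 12 of 18 broad windows, against 45.0% of all windows, and TATAAA in 1 neuronal window, of SV2B, and 0 broad windows, against 11.5%. These motifs were chosen after a first look at the windows, and a match is a description of letters, not a binding site.

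With both arms at the canonical spacing and up to 3 mismatches allowed, SYN1 and SYT3 held a match, as did 1.9% of all windows. The SYN1 match had 1 mismatch and lay 232 to 216 bases before the start. It is shown because both arms stand side by side, with the whole element in capitals, on the minus strand of chrX:47620048-47620107.
SYN1: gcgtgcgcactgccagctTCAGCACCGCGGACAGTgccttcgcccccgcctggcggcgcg
The next windows show the left arm in 3 of the 9 members that hold it, picked with their levels known. They are read in the direction of the gene, with the arm in capitals. In each the left arm lies on the opposite strand and reads GTGCTGA. The UNC13A stretch also holds the right arm on that strand, which reads gctgtcc and is left in lower case. Among the members with the left arm that are not shown, CPLX3 and RAB3C held the right arm as well. The left arm lies 81 to 75 bases before the start in SYT4 and 39 to 33 bases before it in SV2B, and just after the start in UNC13A. The SYT4 stretch is chr18:43277540-43277596 on the minus strand, that of UNC13A is chr19:17688341-17688372 on the minus strand, and that of SV2B is chr15:91099524-91099580 on the plus strand.
SYT4: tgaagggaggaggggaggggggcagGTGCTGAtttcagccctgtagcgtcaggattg
UNC13A: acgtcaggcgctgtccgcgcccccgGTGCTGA
SV2B: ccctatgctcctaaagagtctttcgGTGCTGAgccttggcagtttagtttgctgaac
Of the 3 shown, SYT4 did not pass in MCC13 and SV2B passed in neither comparison. Of the others with the arm, CPLX3 did not exceed 1.79 TPM in any line, SV2C 4.56 TPM and SYT3 6.28 TPM. RAB3C reached 1 TPM only in MKL-2. A link between the arm and the levels was not tested. SYT4 and SV2B were listed at 0 in MCC13 and UNC13A stood at 0.665 TPM there, whereas VAMP1, which also holds the arm, stood at 3.42 TPM in MCC13 and between 4.49 and 14.5 TPM in the other lines. Of the 4 members lower in MCC13 that had a window (SYT1, CPLX2, UNC13A and SYP) UNC13A held it.

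The GC box was found in 25 of 36 neuronal and 12 of 18 broad windows, against 45.0% of all windows. SYP, lower in MCC13, and VAMP3, the most abundant member there, are shown as a neuronal and a broad example, with each GC box in capitals on either strand. The SYP stretch is chrX:49200194-49200313 on the minus strand and holds 4 boxes, and that of VAMP3 is chr1:7771176-7771295 on the plus strand and holds 3.
SYP: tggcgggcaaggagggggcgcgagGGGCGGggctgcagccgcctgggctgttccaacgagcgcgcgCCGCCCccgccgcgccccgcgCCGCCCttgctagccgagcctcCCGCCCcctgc
VAMP3: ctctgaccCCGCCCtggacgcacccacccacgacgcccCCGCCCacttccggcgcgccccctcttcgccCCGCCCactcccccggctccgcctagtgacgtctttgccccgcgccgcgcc
A member at 3.23 TPM in MCC13 and one at 137 TPM there thus share this pattern.

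Beyond the 44 members, 73 further genes of vesicle release and recycling were followed in 6 lists, of which 64 were tested in each comparison. In MCC13, 5 were lower (7.81%) and 1 higher (1.56%), against 2.47% lower and 6.47% higher over all genes tested. In either direction that is 9.38% of the 64, near the 8.95% of all genes. BSN, the active-zone scaffold bassoon, stood at 0.564 TPM in MCC13, against 19.1 TPM in MKL-1, 14.9 in MKL-2 and 24.7 in WaGa (-3.69 ± 0.46, SE, limma adjusted p = 0.0367). RIMS3, a short RIM protein, stood at 1.59 TPM in MCC13, against 125 TPM in MKL-1, 135 in MKL-2 and 59.95 in WaGa (-5.30 ± 0.61, adjusted p = 0.0312). DNM1, the neuronal dynamin that cuts recycled vesicles from the membrane, stood at 9.70 TPM in MCC13, against 101 TPM in MKL-1, 119 in MKL-2 and 122 in WaGa (-3.42 ± 0.23, adjusted p = 0.0113). For each of these 3 genes MCC13 lay below all of MKL-1, MKL-2 and WaGa, as it did for 43.4% of all genes tested. SVOP, a transporter-like vesicle protein, stood at 0.00034 TPM in MCC13, against 15.01 to 25.5 TPM across the 3 lines (-4.47 ± 0.50, adjusted p = 0.0291). NAPB, a brain form of the adaptor that disassembles SNAREs, stood at 6.22 TPM in MCC13, against 43.5 to 73.8 TPM across the 3 lines (-2.99 ± 0.40, adjusted p = 0.0425). SYT16, a synaptotagmin without calcium binding, was the 1 gene higher, at 7.24 TPM in MCC13, against 0.0260 TPM in MKL-1, a listed 0 in MKL-2 and 0.0175 TPM in WaGa (3.02 ± 0.15, adjusted p = 0.0085). By list, 1 of 17 release regulators was higher and 0 lower, and 1 of 7 SNAREs and disassembly factors, 1 of 9 vesicle membrane genes, 2 of 11 active-zone genes and 1 of 12 recycling genes were lower. All 8 exocyst subunits, which tether vesicles in most cells, were tested and 0 passed or had an unadjusted p under 0.05 in limma, with a median difference of 0.16.

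Across MKL-1, MKL-2 and WaGa against REH, 7 of these 64 genes were higher (10.9%) and 3 lower (4.69%), against 4.89% higher and 8.42% lower over all genes tested. In either direction that is 15.6% of the 64, near the 13.3% of all genes. The 3 lower ones are named because they are few, a choice made after their values were seen. UNC13D, the MUNC13 of lymphocyte granules, stood at 1.49 TPM in MKL-1, 1.47 in MKL-2 and 1.07 in WaGa, against 113 TPM in REH (-5.60 ± 0.39, SE, limma adjusted p = 0.0117). VAMP5, a vesicle SNARE of muscle and other non-neuronal cells, stood at 0.122 TPM in MKL-1, 0.0560 in MKL-2 and 0.571 in WaGa, against 119 TPM in REH (-6.61 ± 0.42, adjusted p = 0.0105). PCLO, the active-zone scaffold piccolo, stood at 20.2 TPM in MKL-1, 15.8 in MKL-2 and 24.7 in WaGa, against 248 TPM in REH (-3.57 ± 0.35, adjusted p = 0.0192). In REH, STXBP2, UNC13D, VAMP5, SV2A and PCLO were thus each above 100 TPM, as were DNAJC5 (185 TPM), DNM2 (144 TPM) and SYNGR1 (134 TPM). By list, 1 release regulator was higher and 1 lower, 1 SNARE or disassembly factor was higher and 1 lower, 2 vesicle membrane genes were higher, 1 active-zone gene was higher and 1 lower, 2 recycling genes were higher, and 0 exocyst genes passed, 1 of them at an unadjusted p under 0.05.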

How the data were processed

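Transcript levels were the TPM values that the authors computed and deposited for 5 lines, with 1 library each. Per the submitters' processing notes, the tools included STAR 2.4.5b and StringTie 1.3.5, besides SAMtools 0.1.19 and bcl2fastq 2.20, and the builds hg19 and GRCh37, with no roles stated and no annotation named. The kit was directional per the labels' protocols; whether counting used strand was not given in the sources used here. By GENCODE 29, exons of 3 members overlap another protein-coding gene on the same strand (RAB3D, STXBP2, VAMP2) and those of 10 on the opposite strand (RAB3A, RAB3D, SNAP23, SNAP29, STX1A, STX3, SYN1, SYN2, SYT2, VAMP1), so their values are less certain. TPM keeps no depth, and an exact 0 can be a failed estimate. There was 1 column of values matching no sample, which was not used, nor were the PAX5 exon values.

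Genes reaching 1 TPM in any line compared were tested on log2(TPM + 1) with limma 3.58.1 (R 4.3.3; variance trend, 2-sided, Benjamini-Hochberg over all genes). The spread of a lone line was taken from the others, with 2 residual degrees of freedom against 3 lines. Differences on this scale understate changes of low genes. No label says that libraries came from separate cultures. Paralog ratios were log2 ratios of TPM + 1 within a line. Scripts were tested on simulated data.

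The members, lists and the split of MCC13 were chosen with earlier results of these data known. All members were described, and by rule up to 3 genes per further list and direction that passed in MCC13 were named. Promoters were matched by symbol. Alternatives were a pseudocount of 0.1, other filters, quantile normalization, no variance trend, 1 fit over all lines, and leaving out each line. Python 3.11.15 with numpy 2.4.6 and pandas 2.3.3 was used for summaries.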

Additional observations from a re-analysis of the deposited data

Results flagged for a closer look

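In 9 members, 1 of the 4 Merkel cell carcinoma lines stood far from the other 3 on the log2(TPM + 1) scale, with a gap to the nearest line, as a share of the whole range, above the critical value of Dixon's gap test for 4 values. Chance flags about 1 in 20 such groups. Over the 20698 genes at 1 TPM or more in 1 of these lines, 14% stood out in this way, against 8 of the 43 members at that level (18.6%). MCC13 was the low line for 6 neuronal members, where it was so for 3.16% of all these genes, and the high line for 0 members, where it was so for 6.36%. The gap was 0.877 of the range for SYT13, 0.865 for SYP, 0.854 for SNAP25, 0.853 for UNC13A, 0.852 for RIMS2 and 0.838 for CPLX2. These 6 also passed in the comparison of MCC13 with MKL-1, MKL-2 and WaGa, which uses the same values. MKL-2 was the high line for RAB3C, with a gap of 0.966 of the range, and for SYT6, with 0.849, where the highest level was 0.884 TPM. WaGa was the high line for SV2C, with 0.925. The high values of MKL-2 and WaGa were not tested.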

How the results depend on the processing

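No paired analysis was possible because each line has 1 library and the numbers of the 2 groups pair nothing. In MCC13 against MKL-1, MKL-2 and WaGa, 1852 genes passed, 3312 with no filter and 1167 among genes averaging 5 TPM or more, where 14 members were lower in place of 8. In MKL-1, MKL-2 and WaGa against REH, 2828 genes passed, 5008 with no filter and 1841 at 5 TPM. In all 4 lines against REH, 1166 passed, 3694 with no filter and 288 at 5 TPM. Leaving out MKL-1, MKL-2 or WaGa left 0 genes and 0 members in each comparison, with 4414 to 4978 and 5296 to 6068 genes at unadjusted p under 0.05 in the first and second; over all lines left out of the third, the counts ran from 0 to 2828 genes and 0 to 11 members. Such fits have fewer degrees of freedom; the cause was otherwise not tested. A pseudocount of 0.1 moved log2 ratio differences: SNAP25 over SNAP23 against REH to 10.88 from 7.55, SNAP25 over SNAP29 to 9.81 from 6.53, UNC13A over UNC13B to -6.62 from -5.52 in MCC13 and to -6.19 from -2.96 against REH, and CADPS over CADPS2 in MCC13 to -11.73 from -6.41. The balance of the classes was -3.05 in MCC13 by sums and -4.77 by medians, and 2.67 and 3.95 against REH. Signs reversed for members that had not passed in that comparison. In MCC13, with lines left out, UNC13B ranged from -0.22 to 0.0083, STXBP2 from -0.30 to 0.22, VAMP2 from -0.14 to 0.68, VAMP4 from -0.24 to 0.38 and RIMS1 from -1.42 to 1.36, and UNC13B was 0.0162 with quantile normalization. Against REH, VAMP4 ranged from -0.29 to 0.34, SNAP23 from -0.32 to 0.71, VAMP3 from -0.23 to 0.39 and SV2A from -0.26 to 0.043. With quantile normalization VAMP4 was -0.32, SNAP23 -0.17 and VAMP3 -0.016, and with a pseudocount of 0.1 VAMP4 was -0.0019. Leaving out lines for ratios and the search for both RE1 arms with mismatches were added after seeing the data. Depth was unknown and limits low values most.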
